A study of Mus musculus with 3 samples.

Results

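The T cell receptor complex and its first signalling steps were examined through 9 genes: Cd3d, Cd3e, Cd3g and Cd247, which encode the CD3 chains, Trac and Trbc2, which encode constant regions of the receptor alpha and beta chains, the kinase genes Lck and Zap70, and Lat, which encodes the adaptor. They were chosen by name, with earlier results of these data known. The histone mark H3K36me3 (trimethylated lysine 36 of histone H3) was read from the peaks whose midpoint lay in the body of each gene. All 9 genes held at least 1 peak, against 10040 of all 21946 protein-coding and receptor constant genes. Together the 9 genes held 86 of the 120910 peaks of the table. A gene body here runs from the first to the last base of the gene in GENCODE M21, on the mouse genome build mm10.

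The mark was profiled by chromatin immunoprecipitation sequencing (ChIP-seq) in regulatory T cells (Treg cells) taken from spleen and from large intestine (LI) of C57BL/6 mice labelled Foxp3-YFP (Foxp3Cre-YFP in the study's methods), which carry Cre recombinase and a yellow fluorescent reporter (YFP) in Foxp3, the lineage gene of Treg cells. Cells were sorted as CD3+CD4+YFP+ and pooled from 7 female and 7 male mice, so the gate itself selected the protein product of the CD3 genes. The study's methods give a general range of young adult ages for the mice of its in vivo work and none apart for this assay, and no Setd2 deletion is given for these mice, Setd2 being the enzyme that writes the mark. There was 1 library per tissue, so no difference given here could be checked on replicates, and the input library of splenic Treg chromatin was not analysed here. Values are deposited mean coverage per peak in RPKM, a unit corrected for length and for depth, and their steps correspond to 29.6 M mapped reads in spleen and 38.1 M in LI.

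The receptor itself has no enzymatic activity in its short cytoplasmic tails. The CD3 chains carry the signal: Lck, a kinase held by the coreceptor CD4, phosphorylates the tyrosine motifs of the CD3 chains, Zap70 docks on those motifs, and Zap70 then phosphorylates Lat, on which downstream enzymes assemble. H3K36me3 is laid down behind elongating RNA polymerase and usually rises from the start to the end of a transcribed gene, so it is a mark of the body of active genes and not of their promoters.

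The genes were marked in Treg cells of both tissues, and 8 of the 9 had less H3K36me3 in LI than in spleen. The exception was Zap70, which had more. The log2 ratios of LI over spleen, computed on the summed peak values of a gene after scaling each library to its total over all peaks, ran from -0.46 for Cd3d to 0.28 for Zap70, with a median of -0.28. Each peak counted the same in such a sum, whatever its length. The median over all 9459 genes with enough signal (at least 20 RPKM over both libraries, which all 9 passed) was 0.00, and the quartiles of those genes were -0.20 and 0.23. Higher in LI was 1 of the 9 genes, against 50.7% of all genes. None of the 9 was past 2-fold, which 3.22% of all genes were toward LI and 1.81% toward spleen. With peaks weighted by length, the median log2 ratio was -0.24 for the 9 genes and -0.02 for all genes.

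An approximate 95% interval was put on each ratio by taking every read to cover 200 bp. This span was assumed, is longer than the single-end reads of the study's methods, and was not varied. A shorter span would raise the read numbers and narrow the interval. The interval covers counting error only, not the difference between mice or preparations. By this interval 5 of the 9 genes (Cd3e, Cd3g, Cd247, Trac and Trbc2) lay below 0, against 15.9% of all genes, and Zap70 lay above 0, against 18.5% of all genes. For Cd3d, Lck and Lat the interval included 0. Per peak, 29 of the 86 peaks (33.7%) were higher in LI, against 49.0% of all peaks, and 57 were higher in spleen. Of these 86 peaks, 50 lay in Cd247, and without them the count was 11 of 36. Peaks of 1 gene share its transcription and are not replicates.

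**Figure D1:**
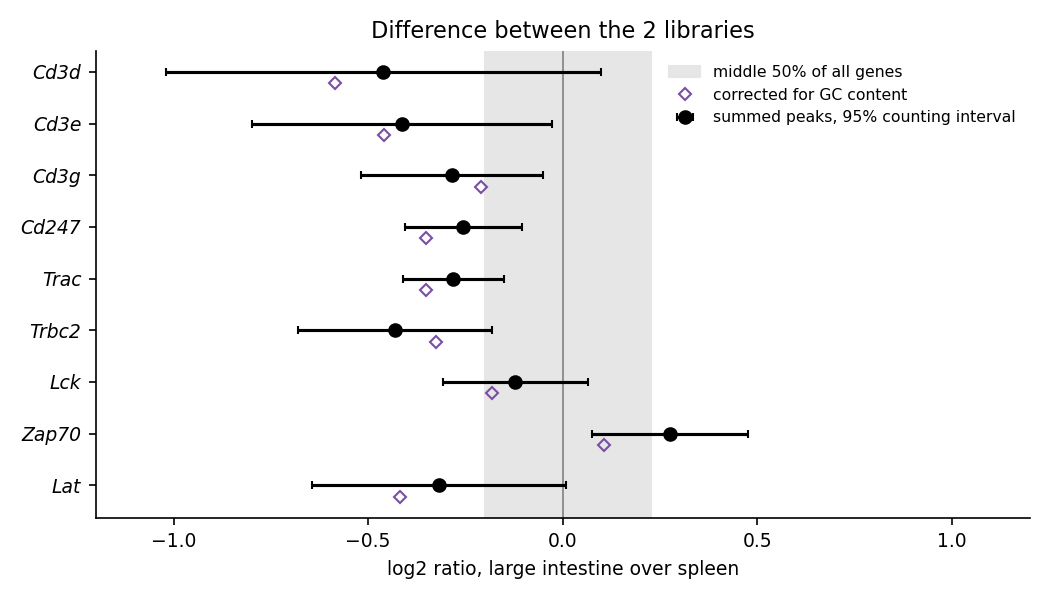
Log2 ratio of LI over spleen (x axis, no unit) for each of the 9 genes (y axis). Black points are summed peaks with the approximate 95% counting interval, open diamonds are the same ratio after correction for GC content, and the grey band holds the middle 50% of all 9459 genes, from -0.20 to 0.23. The points of 8 genes lie below 0, from -0.46 to -0.12, and that of Zap70 lies at 0.28.

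The ratio of a peak moved with its base composition across the whole table. The median log2 ratio was -0.69 in the lowest of 40 equal bins of GC content (median 34.1% GC) and 0.49 in the highest (median 62.9% GC). The peaks of the 9 genes had between 43.6% (Trbc2) and 51.9% GC (Zap70) per gene, in the middle of that range. After each peak was corrected for the median ratio of peaks of like GC content, the same 8 genes remained below 0, with a median of -0.35 over the 9 genes. The corrected ratio of Zap70 was 0.11, with an interval from -0.09 to 0.31, and that of Cd3g was -0.21, with an interval from -0.44 to 0.02, so both intervals then included 0. Those of Cd3d (-0.59, interval -1.14 to -0.03) and Lat (-0.42, interval -0.74 to -0.10) then lay below 0. The part of GC content in the uncorrected ratios was not tested.

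**Figure D2:**
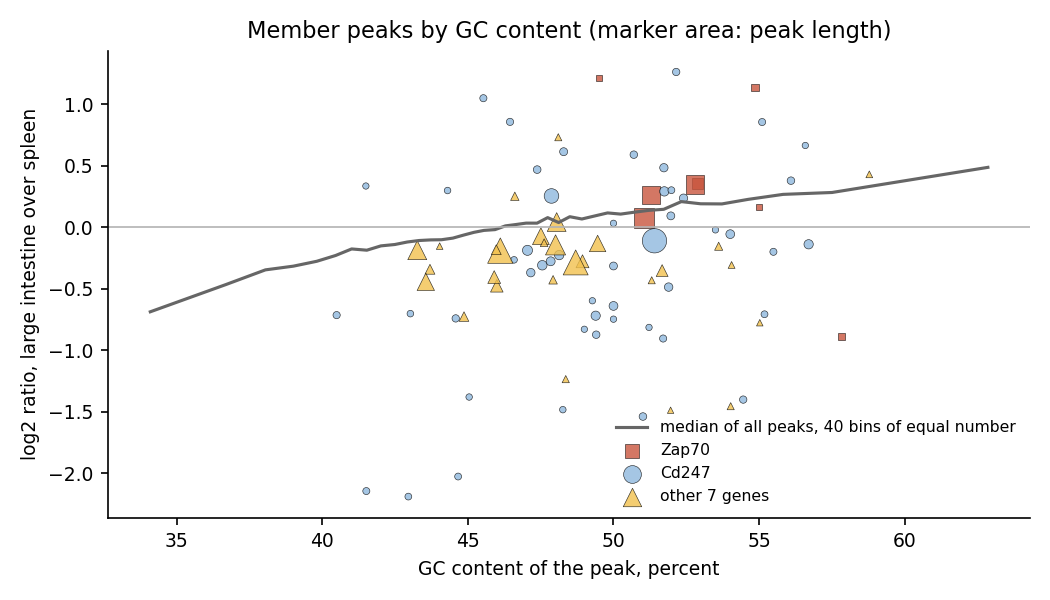
Log2 ratio of LI over spleen (y axis, no unit) against GC content in percent (x axis) for the 86 peaks of the 9 genes, with marker area following peak length. The grey line is the median over all peaks in 40 bins of equal number, which climbs from -0.69 to 0.49. The large Zap70 peaks lie on or near the line, and the large peaks of most other genes lie below it.

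Per base of annotated gene body, Trac carried by far the most H3K36me3 of the 9 genes. Its level, the mean over the whole body with bases outside peaks taken as 0, was 35.7 RPKM in spleen and 30.3 RPKM in LI. That placed it 26 from the top of the 9459 genes in spleen and 117 from the top in LI. The annotated bodies of Trac and Trbc2 hold the constant genes alone, without the segments upstream. From the Traj segments to the end of Trac the mean was 12.1 RPKM in spleen and 10.9 RPKM in LI. From Trbd2 to the end of Trbc2 it was 13.3 RPKM in spleen and 9.64 RPKM in LI. Both stretches lay below the body mean of Cd3g in both tissues, so the order below holds for annotated bodies only. The median gene had 4.95 RPKM in spleen and 5.21 RPKM in LI. In spleen the order after Trac was Trbc2 (22.0 RPKM), Cd3e (20.3), Zap70 (18.7), Lat (18.3), Lck (14.7), Cd3g (13.9), Cd3d (7.02) and Cd247 (5.58). In this order Trbc2, Cd3e and Zap70 each had a counting interval that overlapped the next gene's, as did Lck and Cd3d. In LI Zap70 came second, with 22.4 RPKM, and Trbc2 took the fifth place, with 16.7 RPKM. The LI intervals of Trac and of Zap70 each overlapped no neighbour in the order. Among the CD3 chains Cd3e had the highest level and Cd247 the lowest in both tissues, with intervals of Cd247 and Cd3d that overlapped in both. Within peaks alone, Cd247 had 15.6 RPKM in spleen and 14.6 RPKM in LI, and Cd3d had 15.8 and 13.1 RPKM.

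**Figure D3:**
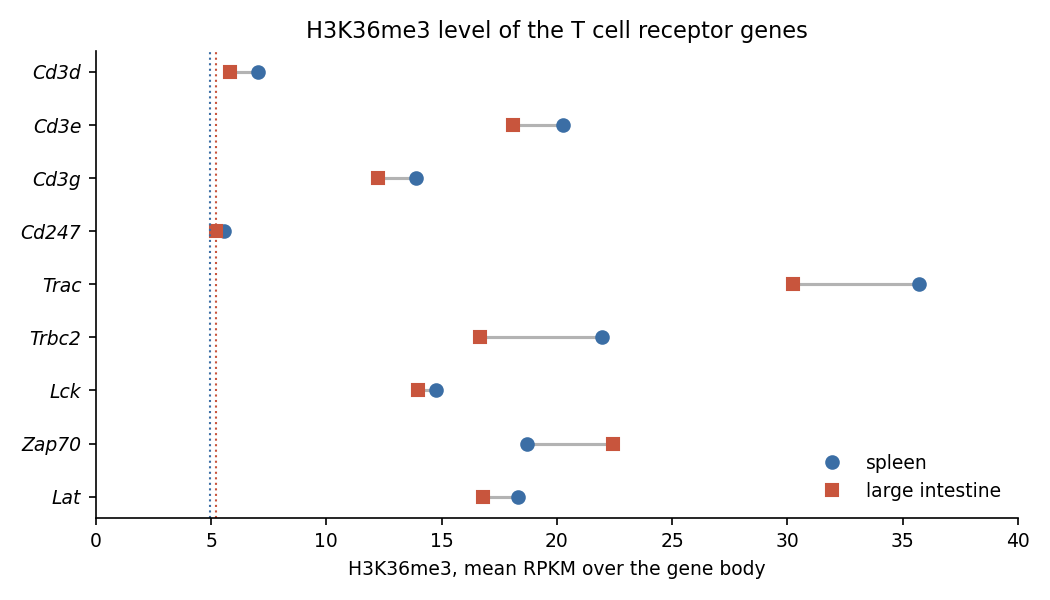
H3K36me3 level as mean RPKM over the gene body (x axis) of each of the 9 genes (y axis) in spleen (blue circles) and LI (red squares), as deposited, with dotted lines at the medians of all genes (4.95 and 5.21 RPKM). All points except those of Cd247 and Cd3d lie far to the right of the lines, and the LI square lies left of the spleen circle for every gene but Zap70.

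Cd3g, Cd3d and Cd3e, whose products form the gamma, delta and epsilon chains of CD3, sit next to each other within 40056 bp of chromosome 9. Cd3g (chr9:44969572-44980431, minus strand) and Cd3d (chr9:44981786-44987339, plus strand) are read away from each other from starts 1355 bp apart, and no peak midpoint lay between those starts. Cd3e (chr9:44998740-45009627, minus strand) points at the end of Cd3d across a gap of 11401 bp, which held 1 peak, of 14.5 RPKM in spleen and 11.3 RPKM in LI. All 11 peaks of the cluster were higher in spleen, whereas 49.0% of all peaks were higher in LI.

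Cd3d summed to 39.0 RPKM in spleen and 29.1 RPKM in LI over 3 peaks. Its log2 ratio was -0.46, with an interval from -1.02 to 0.10, the widest of the 9 genes. Its longest peak, of 1974 bp with its midpoint in a coding exon, made up 79.8% of the length of its peaks, with 16.8 RPKM in spleen and 14.3 RPKM in LI. Cd3e summed to 51.8 RPKM in spleen and 40.1 RPKM in LI over 3 peaks, a log2 ratio of -0.41 (interval -0.80 to -0.03). A single peak of 8546 bp, with 24.5 RPKM in spleen and 22.2 RPKM in LI, made up 92.3% of the length of its peaks and had a log2 ratio of -0.19 (interval -0.34 to -0.03). An antisense gene, Gm48719, lies within this peak, and ChIP-seq does not tell strands apart. Cd3g summed to 70.4 RPKM in spleen and 59.6 RPKM in LI over 4 peaks, a log2 ratio of -0.28 (interval -0.52 to -0.05). In each of these 3 genes the longest peak was closer to parity than the sum, and the short peaks near the start were further from it.

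Cd247, which encodes the zeta chain that holds most of the signalling motifs of the complex, held far more peaks than the other CD3 genes. It spans 88.6 kb (chr1:165788681-165877277, plus strand), and its 50 peaks, of 394 bp at the median, covered 35.8% of its body. The sum over them was 573 RPKM in spleen and 496 RPKM in LI, a log2 ratio of -0.26 (interval -0.41 to -0.11). Of the 50 peaks, 32 were higher in spleen and 18 in LI, and the single ratios ran from -2.19 to 1.26. The counting interval lay below 0 for 6 of them, against 6.42% of all peaks, and above 0 for none, against 6.51% of all peaks. Its longest peak was one of 7816 bp that spans the 3′ end of the shortest annotated coding transcript, with 27.8 RPKM in spleen and 26.6 RPKM in LI, and its log2 ratio of -0.11 had an interval from -0.26 to 0.04. From the Cd247 peaks of at least 1 kb alone, the ratio was -0.02 (interval -0.21 to 0.16).

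The last 12124 bp of Cd247 overlap the end of Pou2f1, the gene of the transcription factor Oct-1, on the other strand. This stretch held 7 of the 50 peaks, with 78.8 RPKM in spleen and 58.8 RPKM in LI (log2 ratio -0.46). The 43 peaks before it summed to 494 RPKM in spleen and 437 RPKM in LI, with a log2 ratio of -0.22 (interval -0.38 to -0.06), so the lower value in LI was also found outside the shared stretch.

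In the constant genes of the receptor, the mark formed 1 block each. Trac (chr14:54220521-54224206, plus strand) lay wholly under a peak of 8281 bp, with 35.7 RPKM in spleen and 30.3 RPKM in LI, a log2 ratio of -0.28 (interval -0.41 to -0.15). Of this peak, 55.5% of the bases lay outside the annotated gene, on both sides. Trbc2 (chr6:41546730-41548352, plus strand) lay under a peak of 3818 bp with 22.0 RPKM in spleen and 16.7 RPKM in LI, a log2 ratio of -0.43 (interval -0.68 to -0.18), and 57.5% of that peak lay outside the gene. The beta chain can use either of 2 nearly identical constant genes, and the other one, Trbc1, held 2 peaks, with 20.5 RPKM in spleen and 12.6 RPKM in LI (log2 ratio -0.72, interval -1.49 to 0.06). How reads that match both copies were counted is not given in the sources used here, so the split between Trbc1 and Trbc2 is uncertain.

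Upstream of the constant genes, rearrangement joins variable, diversity and joining segments and usually removes the DNA between those it joins, and the constant gene is attached by RNA splicing. The 60 annotated Traj segments that precede Trac held 21 peaks over 65516 bp, with 283 RPKM in spleen and 274 RPKM in LI, and their log2 ratio was -0.09 (interval -0.23 to 0.04). The stretch from Trbd2 to the start of Trbc2 held 3 peaks, with 29.7 RPKM in spleen and 17.8 RPKM in LI (log2 ratio -0.77, interval -1.46 to -0.08). The corresponding stretch before Trbc1 held 4 peaks, with 40.7 RPKM in spleen and 25.5 RPKM in LI (log2 ratio -0.71, interval -1.43 to 0.01). Upstream, the Trav and Trdv segments before Trdd1 and the Trdd1 to Trdc stretch held no peak at all, and the Trbv segments before Trbd1 held 1. The number of gene copies in rearranged cells was not measured, and its part in these values was not tested.

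Lck had the smallest log2 ratio in size of the 9 genes on summed peaks, though not after GC correction, where that of Zap70 was smaller (0.11 against -0.18), nor with the nearest transcript start, the strongest peak or peaks of at least 1 kb. It spans chr4:129548344-129573641 on the minus strand, and its 13 peaks summed to 193 RPKM in spleen and 183 RPKM in LI, a log2 ratio of -0.12 (interval -0.31 to 0.06). Of the 13 peaks 9 were higher in spleen and 4 in LI, including the longest, of 4537 bp at the end of the gene, with 24.4 RPKM in spleen and 25.9 RPKM in LI. Lck has a distal and a proximal start, 15250 bp apart, of which the distal one is known for its use in mature T cells. The 10 peaks between the starts gave that stretch a mean of 9.39 RPKM in spleen and 8.45 RPKM in LI. From the proximal start to the end of the gene the mean was 22.8 RPKM in spleen and 22.3 RPKM in LI. The log2 ratio was -0.12 in both stretches, with an interval from -0.40 to 0.16 in the first and from -0.28 to 0.03 in the second.

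Zap70 was the single gene of the 9 with more H3K36me3 in LI. It spans chr1:36761798-36782818 on the plus strand, and its 8 peaks summed to 140 RPKM in spleen and 175 RPKM in LI, a log2 ratio of 0.28 (interval 0.07 to 0.48). Of the 8 peaks 7 were higher in LI. The 3 blocks that cover the second part of the gene had 25.4, 33.9 and 30.0 RPKM in spleen and 31.5, 37.0 and 39.5 RPKM in LI, in order from the start. Their log2 ratios were 0.27 (interval 0.06 to 0.47), 0.08 (interval -0.09 to 0.24) and 0.35 (interval 0.17 to 0.53). The last block ran 1540 bp past the annotated end. The only peak higher in spleen was the one nearest the start. Taken on the strongest peak alone the ratio of the gene was 0.08 (interval -0.08 to 0.24), and GC correction also brought the interval across 0, as given above.

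A second transcript start of Zap70 in RefSeq, at base 36764515 of chromosome 1, lay inside a peak of 452 bp (chr1:36764295-36764746) that had 6.50 RPKM in spleen and 14.8 RPKM in LI, a log2 ratio of 1.14 (interval 0.03 to 2.25). At 200 bp a read, this peak held about 8.71 reads in spleen and 25.4 in LI. Of the 86 peaks of the 9 genes, 3 had an interval above 0, against 6.51% of all peaks. The peak had 54.9% GC, and its ratio is not corrected for GC content. All peaks in the bin with a median of 54.6% GC had a median log2 ratio of 0.23. The 250 bases before this second start were the only RefSeq promoter window at hand overlapped by a peak of its gene whose counting interval excluded 0. No RefSeq promoter window was at hand for Trac or Trbc2, whose peaks reach past the annotated genes. The Zap70 window is shown with GGAA, the core of Ets factor sites, and its reverse complement TTCC in capitals (RefSeq, GRCm38.p6, chr1:36764265-36764514, plus strand).
Zap70 internal window: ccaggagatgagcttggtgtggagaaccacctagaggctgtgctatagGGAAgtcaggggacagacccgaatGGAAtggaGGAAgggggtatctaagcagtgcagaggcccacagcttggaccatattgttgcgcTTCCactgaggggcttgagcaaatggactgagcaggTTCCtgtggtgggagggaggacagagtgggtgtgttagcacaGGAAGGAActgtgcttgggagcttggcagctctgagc
The window held 7 matches to GGAA on either strand, 2 of them side by side. The other windows at hand for the 9 genes held 0 to 8 matches, with 8 at the first start of Zap70. At least 1 match was found in 93.4% of the 32851 RefSeq mouse promoter windows of this length and 7 or more in 3.82%. The window shown also held 1 match to TGTGGT, the letters of Runx sites, on either strand, which 14.05% of all windows held. A match describes the letters and is no evidence of binding.

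Lat, the adaptor that collects the enzymes downstream of Zap70, spans chr7:126363824-126369570 on the minus strand. Its 3 peaks summed to 51.2 RPKM in spleen and 42.3 RPKM in LI, a log2 ratio of -0.32 (interval -0.64 to 0.01). A block of 5255 bp over the second part of the gene, with 26.5 RPKM in spleen and 24.8 RPKM in LI, made up 85.4% of the length of its peaks. Its log2 ratio was -0.14 (interval -0.33 to 0.05), and 1728 of its bases lay past the end of the gene.

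Within the 7 genes that had more than 1 peak, the mark was lower over the beginning of the gene than over its end, as it was in most genes. When the body was cut into 3 parts of equal length, the mean level of the first part was below that of the last in both libraries in 7 of 7, against 84.7% of all genes with 2 or more peaks. In Zap70 the means were 4.32, 19.7 and 32.0 RPKM from the first to the last part in spleen and 5.92, 23.8 and 37.6 RPKM in LI. In Lat they were 5.36, 23.1 and 26.5 RPKM in spleen and 3.99, 21.6 and 24.8 RPKM in LI. In Cd3d the middle part was the highest, with 0.89, 12.6 and 7.60 RPKM in spleen and 0.33, 10.7 and 6.44 RPKM in LI. The middle part was also the highest in Cd3e, with 13.6, 24.5 and 22.6 RPKM in spleen and 11.7, 22.2 and 20.4 RPKM in LI. The peak midpoint nearest to the first base of its gene was 889 bp from it, in Lat.

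**Figure D4:**
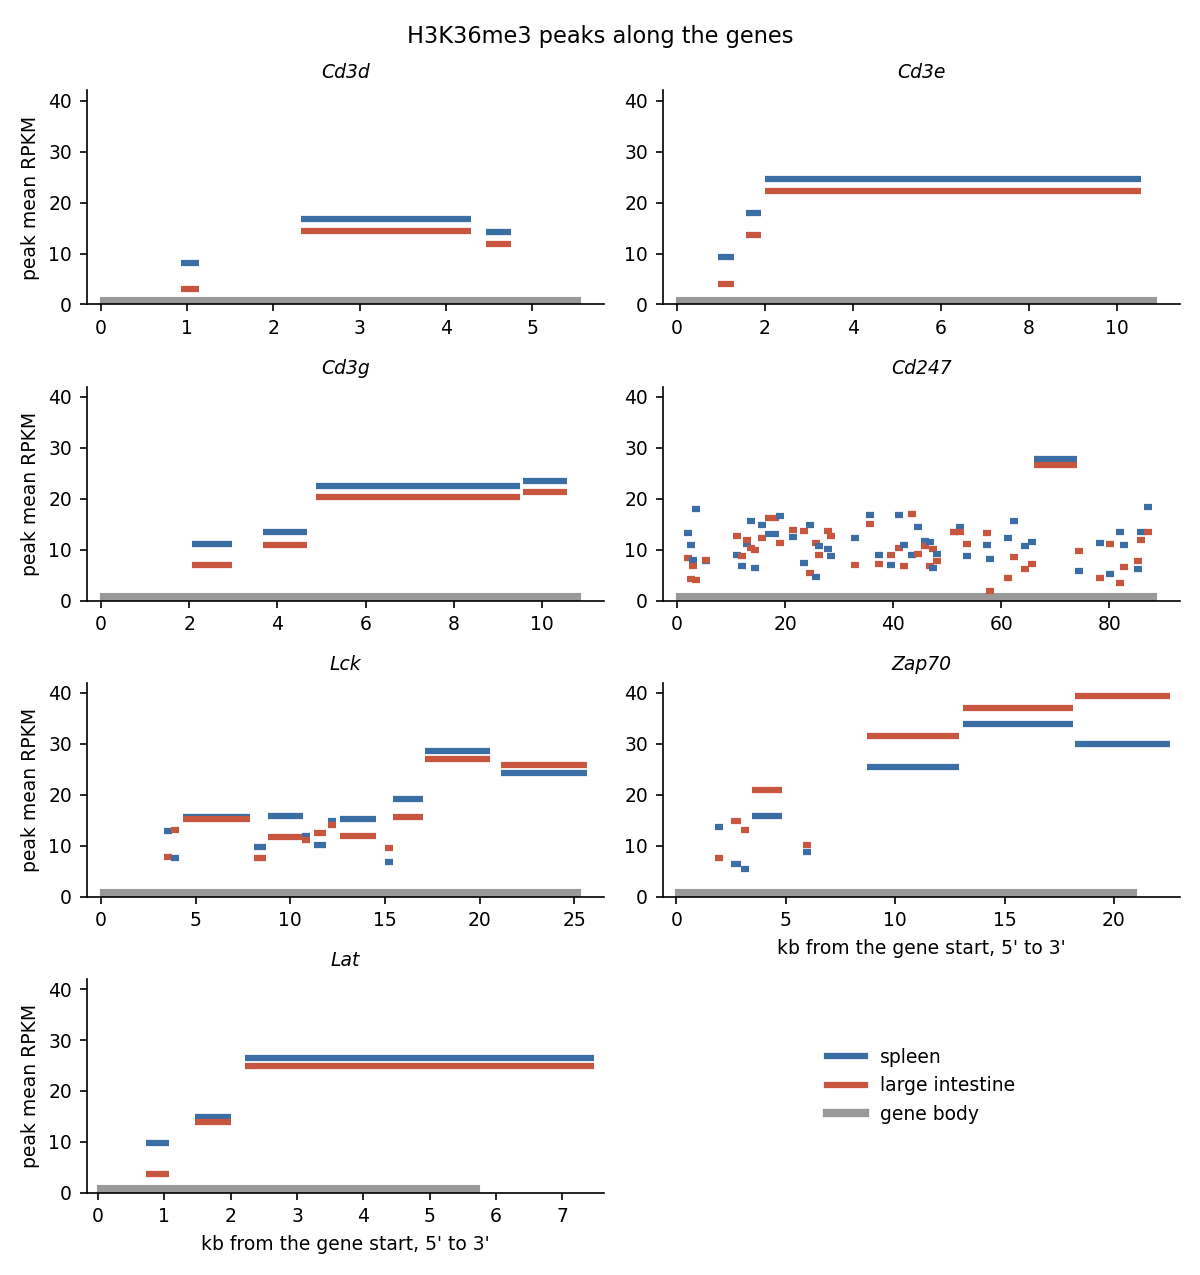
Mean RPKM of each peak (y axis) by its distance in kb from the gene start (x axis) in the 7 genes with more than 1 peak, in spleen (blue) and LI (red). Bars have the length of the peak, with very short ones widened to stay visible, and grey marks the gene body. The highest bars lie in the second part of each gene, red lies below blue at the first peak of all 7 genes, and red lies above blue at the other peaks of Zap70.

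At the most 5′ peak, all 7 genes had a lower log2 ratio than over their other peaks, a comparison made after the values were seen. Over all genes with 2 or more peaks this was so in 51.1%. The first peak of Cd3d had 8.04 RPKM in spleen and 2.96 RPKM in LI (log2 ratio -1.49). That of Cd3e had 9.37 RPKM and 4.11 RPKM (-1.23), and that of Lat had 9.78 RPKM and 3.68 RPKM (-1.45). In Cd3g it had 11.1 RPKM in spleen and 6.92 RPKM in LI (-0.73), and in Cd247 13.3 RPKM and 8.38 RPKM (-0.71). The first peak of Lck had 12.9 RPKM in spleen and 7.77 RPKM in LI (-0.78), and that of Zap70 had 13.7 RPKM and 7.65 RPKM (-0.89), whereas the other peaks of Zap70 stood at 0.36. These peaks were 204 to 916 bp long and held, at 200 bp a read, about 4.86 to 30.1 reads in spleen and 2.30 to 24.2 in LI, and each of the 7 counting intervals included 0. The median difference between the first peak and the others was -0.95 over the 7 genes and -0.02 over all genes.

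The first peaks of at most 300 bp are shown, which leaves out those of Cd3e, Cd3g and Lat, the last having the largest difference (-1.31). With them are given the peaks of lowest and highest ratio among the peaks of at most 300 bp in the 9 genes. Each is written on the strand of its gene (GRCm38), with CpG dinucleotides, where DNA methylation sits, in capitals. None overlaps an annotated UTR.
Cd3d, most 5′ peak, chr9:44982715-44982918, plus strand: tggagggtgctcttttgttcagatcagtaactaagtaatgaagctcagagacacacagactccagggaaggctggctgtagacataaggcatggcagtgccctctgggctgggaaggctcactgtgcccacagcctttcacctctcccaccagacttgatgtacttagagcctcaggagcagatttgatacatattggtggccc
Cd247, most 5′ peak, chr1:165790615-165790913, plus strand: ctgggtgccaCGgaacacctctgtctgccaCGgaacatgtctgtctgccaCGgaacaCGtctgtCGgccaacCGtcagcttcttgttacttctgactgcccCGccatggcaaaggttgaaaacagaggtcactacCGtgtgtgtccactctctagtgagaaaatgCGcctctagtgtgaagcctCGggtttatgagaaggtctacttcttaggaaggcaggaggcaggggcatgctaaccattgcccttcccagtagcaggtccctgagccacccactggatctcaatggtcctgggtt
Lck, most 5′ peak, chr4:129569963-129570191, minus strand: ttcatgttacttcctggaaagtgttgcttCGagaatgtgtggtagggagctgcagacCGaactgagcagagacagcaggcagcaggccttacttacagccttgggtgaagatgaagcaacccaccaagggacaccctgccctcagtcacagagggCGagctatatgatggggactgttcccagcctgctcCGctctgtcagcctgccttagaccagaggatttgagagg
Zap70, most 5′ peak, chr1:36763627-36763837, plus strand: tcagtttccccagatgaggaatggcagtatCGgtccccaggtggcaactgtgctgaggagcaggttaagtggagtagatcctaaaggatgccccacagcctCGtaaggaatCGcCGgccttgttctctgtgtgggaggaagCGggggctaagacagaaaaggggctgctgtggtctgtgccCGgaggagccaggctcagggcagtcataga
Cd247, lowest ratio, chr1:165792146-165792429, plus strand: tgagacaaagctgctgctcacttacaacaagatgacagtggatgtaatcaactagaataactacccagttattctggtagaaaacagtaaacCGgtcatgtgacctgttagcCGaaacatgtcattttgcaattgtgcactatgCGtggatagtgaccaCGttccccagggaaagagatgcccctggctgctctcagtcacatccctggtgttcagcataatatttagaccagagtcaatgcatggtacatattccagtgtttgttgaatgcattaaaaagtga
Zap70, highest ratio, chr1:36764826-36765025, plus strand: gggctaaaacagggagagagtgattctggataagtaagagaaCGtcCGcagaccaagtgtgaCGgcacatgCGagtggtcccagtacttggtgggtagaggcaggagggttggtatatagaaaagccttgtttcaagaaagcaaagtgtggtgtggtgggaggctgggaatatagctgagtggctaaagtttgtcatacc
The peak of lowest ratio (Cd247, chr1:165792146-165792429) had 18.0 RPKM in spleen and 4.07 RPKM in LI, a log2 ratio of -2.19 (interval -3.72 to -0.66). The peak of highest ratio among those of at most 300 bp (Zap70, chr1:36764826-36765025) had 5.48 RPKM in spleen and 13.1 RPKM in LI, a log2 ratio of 1.21 (interval -0.59 to 3.02). It overlaps Gm18828, a processed pseudogene, so its reads could also match the parent gene of that copy. GC content ran from 43.0% in the lowest Cd247 peak to 57.8% in the first peak of Zap70. The first peak of Cd247 held 10 CpG and that of Cd3d held 0. Both had a lower value in LI, with counting intervals that included 0, and the part of CpG content was not tested.

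The protein-coding genes next to the 9 lay closer to parity in most cases. Among those with enough signal, Ube4a beside Cd3g had a log2 ratio of -0.09 (interval -0.22 to 0.04), with 237 RPKM in spleen and 229 RPKM in LI. Hdac1, a histone deacetylase gene beside Lck, had -0.14 (interval -0.30 to 0.01), which is close to the value of Lck itself. Dad1 beside Trac had 0.02 (interval -0.25 to 0.29) and Ephb6 beside Trbc2 had -0.03 (interval -0.39 to 0.33). Tmem131, which follows Zap70, had 0.13 (interval 0.00 to 0.26), also toward LI. Beside Lat, Spns1, whose nearer end is 490 bp away, had 0.08 (interval -0.13 to 0.28), whereas Sbk1, at 68808 bp, had 156 RPKM in spleen and 84.9 RPKM in LI (-0.92, interval -1.21 to -0.62). Pou2f1, which overlaps Cd247, had -0.17 (interval -0.40 to 0.05), and Creg1 before Cd247 had 0.27 (interval -0.50 to 1.03). The differences between members and neighbours were not tested. Mpzl2, Dusp27, Olfr1507, Prss2, Fam167b and 4933424G06Rik, the other nearest genes, held no peak.

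Further T cell receptor signalling genes were taken from a list of 50, from the coreceptor Cd4 to the calcium channel Orai1. All 50 held a peak, against 10040 of all 21946 genes, and 49 of the 50 had enough signal. Of these 49, 33 were lower and 16 higher in LI (32.7%), against 50.7% of all genes higher in LI. Their median log2 ratio was -0.09, between those of the 9 genes and of all genes. The counting interval lay below 0 in 15 (30.6%), against 15.9% of all genes, and above 0 in 9 (18.4%), against 18.5% of all genes.

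Past 2-fold were 2 of the 49, 1 in each direction, which is near the shares of all genes (3.22% toward LI and 1.81% toward spleen). Vav3, a guanine nucleotide exchange factor, had 80.9 RPKM in spleen and 40.5 RPKM in LI (log2 ratio -1.03, interval -1.57 to -0.50). Tec, a non-receptor tyrosine kinase, had 99.6 RPKM in spleen and 223 RPKM in LI (log2 ratio 1.12, interval 0.78 to 1.45), and LI had the higher value in 20 of its 20 peaks. After Vav3 the lowest ratios were those of Prkcq, the kinase PKC-theta that signals from the receptor to NF-kB, and of Trbc1, given above. Prkcq had 857 RPKM in spleen and 528 RPKM in LI over 64 peaks, of which 2 were higher in LI (log2 ratio -0.74, interval -0.85 to -0.63). After Tec the highest were Malt1, the protease that acts further along the PKC-theta route, with 245 RPKM in spleen and 335 RPKM in LI (0.40, interval 0.27 to 0.54), and Itpr1, a calcium release channel, with 931 RPKM in spleen and 1254 RPKM in LI (0.39, interval 0.28 to 0.49). Genes on 1 route, Prkcq and Malt1, differed between the libraries in opposite directions.

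**Figure D5:**
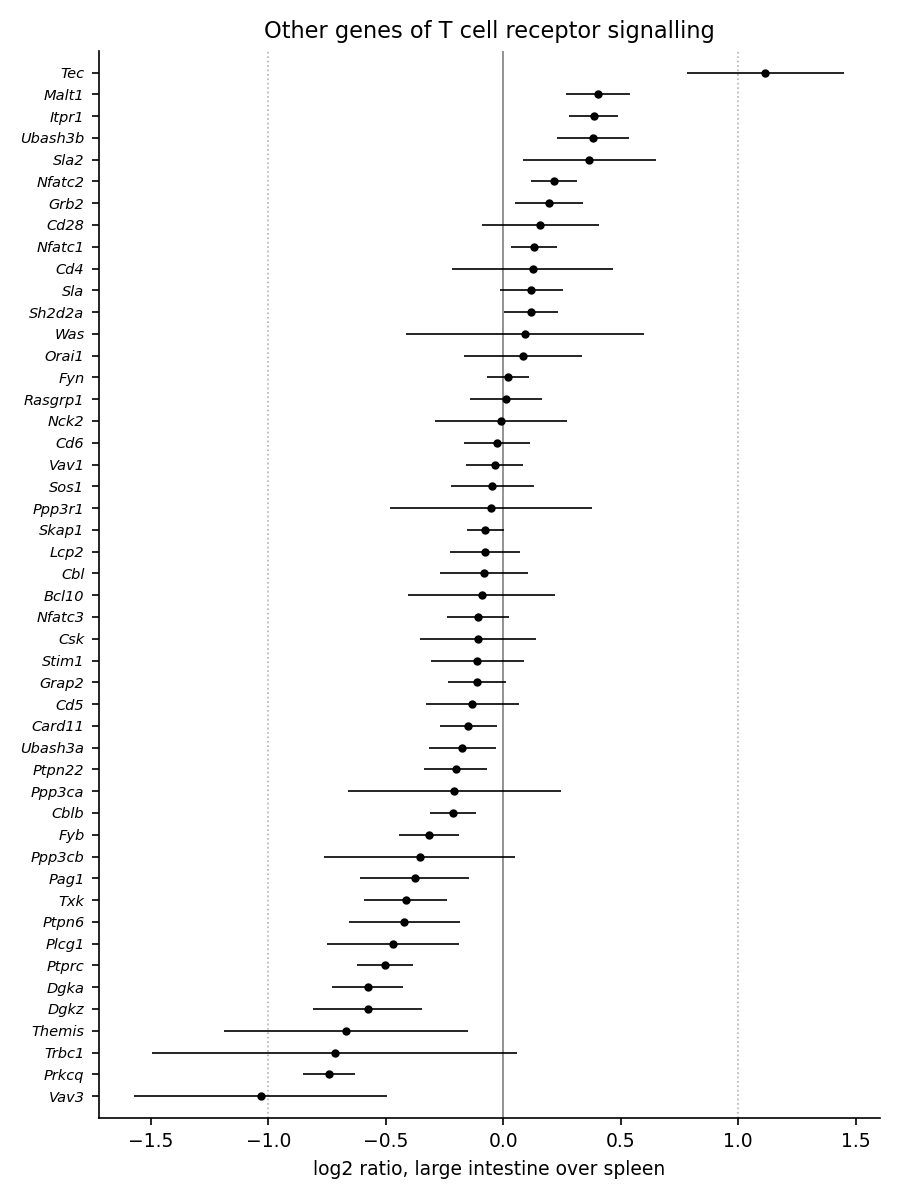
Log2 ratio of LI over spleen (x axis, no unit) of 48 of the 49 other signalling genes with enough signal (y axis), with approximate 95% counting intervals and dotted lines at 2-fold. Most points lie between -0.75 and 0.50, Tec alone lies beyond the right line and Vav3 alone beyond the left.

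The labelled cell type was checked on marker genes. Foxp3 held 9 peaks, with 133 RPKM in spleen and 156 RPKM in LI (log2 ratio 0.19), and all 7 Treg markers held peaks, summing to 1881 RPKM in spleen and 1603 RPKM in LI. Ikzf2, the gene of Helios, made up most of this sum, with 1205 RPKM in spleen and 851 RPKM in LI. Of the 7 markers 4 were higher in LI (57.1%, against 50.7% of all genes). Among the 4 were Ctla4 (log2 ratio 0.59) and Tnfrsf18 (0.80), and the median of the 7 was 0.13. A peak was held by 10040 of all 21946 protein-coding and receptor constant genes. Of 7 B cell markers 3 held a peak (60.2 RPKM in spleen and 53.4 RPKM in LI over 6 peaks), and Ms4a1 had none. Cd79a had 47.2 RPKM in spleen and 29.8 RPKM in LI. The other 2 were higher in LI, Cd79b with 8.96 RPKM in spleen and 13.7 RPKM in LI, and Pax5 with 4.05 and 9.91 RPKM. Of 7 myeloid markers 1 did (14.7 and 16.3 RPKM), with none in Lyz2 or Itgam, and of 6 epithelial markers 2 did (29.9 and 59.8 RPKM), with none in Cdh1 or Krt8. Epcam held 5 of these epithelial peaks, all higher in LI, with 25.3 RPKM in spleen and 47.2 RPKM in LI (log2 ratio 0.84, interval 0.23 to 1.46). Cd8b1 held 2 peaks, with 21.1 RPKM in spleen and 9.46 RPKM in LI, and Cd8a none. The 4 gamma-delta receptor constant genes and the 3 NK cell markers held no peak. In a bulk library, fewer cells with a mark and less of the mark per cell cannot be told apart, and the part of other cell types in the values of the 9 genes was not tested.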

How the data were processed

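Per the study's methods and the submitters' processing notes, the authors aligned single-end reads to mm10 (Bowtie2), called peaks per tissue with MACS2 against the input, merged them with bedtools and averaged RPKM-scaled coverage tracks over each merged peak, so the deposited values are mean RPKM per peak. The deposited table is named as raw counts, but its values are not whole, and no count test was run. Peaks were assigned to GENCODE M21 protein-coding and receptor constant genes by midpoint. No peak lay past a chromosome end of GRCm38. Values were summed per gene, and log2 ratios of these sums used a pseudocount of 0.5 RPKM after scaling to library totals, which understates the change of low genes. Ratios of single peaks, of most 5′ against other peaks and of parts of a gene had no pseudocount. Genes under 20 RPKM over both libraries were left out. With 1 library per tissue no p-value was computed. The ratio step was tested on simulated data. The 9 genes and the lists were chosen with earlier results of these data known. Named genes were the 9, their nearest protein-coding neighbours, and the signalling genes past 2-fold or among the 3 highest and 3 lowest ratios. 1 signalling gene is counted but not shown by name. Alternatives were other scalings, pseudocounts, minimums, peak assignments, sums and a GC correction. Python 3.11.15, numpy 2.4.6, pandas 2.3.3 and matplotlib 3.10.9 were used.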

Additional observations from a re-analysis of the deposited data

How the results depend on the processing

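The median of the 9 genes stayed below 0 (-0.35 to -0.12) and Zap70 stayed the single gene higher in LI under 11 other settings and under 2 more chosen after seeing the data (only peaks wholly inside the body, and without the most 5′ peak; these and a minimum of 200 RPKM left out some genes, 3 remaining under the minimum). None of the 9 passed 2-fold under any of the 11. The value of Zap70 ran from 0.08 to 0.46. That of Cd247 moved to -0.56 with the nearest transcript start and to -0.02 with peaks of at least 1 kb, and that of Trac moved to -0.10 with the nearest transcript start, where its counting interval included 0 (-0.39 to 0.20). That of Cd247 also included 0 with the strongest peak (-0.11) and with peaks of at least 1 kb, and that of Zap70 with the strongest peak (0.08) and with GC correction (0.11). For Cd3e, the counting interval included 0 without scaling (-0.37) and without its most 5′ peak (-0.28), and for Cd3g with its strongest peak (-0.18), with peaks of at least 1 kb (-0.24), with GC correction (-0.21) and without its most 5′ peak (-0.22). The interval lay below 0 for Lck with weighting by peak length (-0.15) and with peaks of at least 1 kb (-0.19), for Lat with the nearest transcript start (-0.38), with weighting by peak length (-0.20) and with GC correction (-0.42), and for Cd3d with GC correction (-0.59). The share of peaks higher in LI ran from 29.1% to 34.9%. Of the other signalling genes, 2 were past 2-fold as reported and 3 with the nearest transcript start. The count was 1 without scaling, with a pseudocount of 5, with a minimum of 200 RPKM, with the strongest peak or with GC correction. It was 0 with weighting by peak length or with peaks of at least 1 kb. The causes were not tested. Leaving out a library was not possible with 1 library per tissue. No paired analysis was possible because no result comes from a test. Short peaks hold few reads, so single-peak ratios are the least precise values here.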
